A study of Mus musculus with 9 samples.

Results

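The genes described here are 31 members of the folding and quality-control system of the endoplasmic reticulum (ER), taken by symbol from the deposited table of 24394 genes. They are 6 chaperones, a set of 5 that holds J-domain co-chaperones and their partner Sdf2l1, 7 protein disulfide isomerases and 2 small secreted proteins. The others are 7 components of ER-associated degradation, and 4 genes for stress sensors and the transcription factor Xbp1. The names of the 31 members fixed the choice and no measured value was used in it, although earlier results of these data were known when it was made. Polyadenylated RNA was sequenced from postmortem hippocampus of C57BL6/J mice, described by the submitters as young. Of the 3 groups, with 3 libraries each, one received doxorubicin by injection together with MitoQ as a supplement, another received doxorubicin injection alone, and a sham group was given saline. Doxorubicin is an anthracycline used in chemotherapy, and MitoQ is a ubiquinone derivative built to accumulate in mitochondria as an antioxidant. The sources used here do not give doses, the length of treatment, the time between injection and tissue collection, sex or the exact age, and no group had MitoQ alone. The labels do not say whether each library came from a separate animal, so that p-values measure the spread between these libraries.

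Proteins that enter the ER are folded there by chaperones and disulfide isomerases, and those that fail to fold are passed back to the cytosol and destroyed by ER-associated degradation. When unfolded proteins build up, 3 membrane sensors, ATF6, IRE1 (gene Ern1) and PERK (gene Eif2ak3), start the unfolded protein response. ATF6 and the spliced form of XBP1 raise transcription of chaperone and degradation genes, while PERK slows translation and favours the factor ATF4. In neurons the same system carries the load of synthesising receptors, channels and secreted peptides. Counts per gene do not separate the spliced from the unspliced Xbp1 transcript and carry no information on sensor phosphorylation or ATF6 cleavage.

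ATF6 acts through short promoter sequences, and these are shown because they separate the members into a group with and a group without the classical element. The ER stress response element (ERSE, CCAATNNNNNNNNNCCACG) was searched for on both strands in RefSeq promoter windows of GRCm38.p6, from 250 bases before to 50 bases after the annotated start. Windows were available for 26 of the 31 members. An exact ERSE lay in 8 of these 26 windows (30.8%), against 37 of 27025 gene symbols with a window (0.137%). Of 11546 tested genes with a window, 19 held an exact ERSE, the 8 members among them. With at most 1 substitution in the 10 fixed letters of the ERSE the share was 14 of 26 (53.8%), against 1.72% of all symbols. The related ERSE-II (ATTGG, any base, then CCACG) was found exactly in 2 members, Herpud1 and Dnajb11 (7.69%, against 0.0444% of all symbols), neither of which held an exact ERSE. With at most 1 substitution it was found in 8 of 26 members (30.8%, against 1.31% of all symbols), Sdf2l1 and Edem1 among them. The XBP1-type element (UPRE, TGACG followed by TGG) was found in 1 member, Txndc5 (3.85%, against 0.714%). Each element, its variable bases included, is in capitals below and each site is written 5′ to 3′ on the strand of its gene, so that sites reading CGTGG first hold the element on the opposite strand. The substituted position is left in lower case, just before GTGG in Pdia4 and just after CCAC in Pdia3.
Hspa5 (chr2:34772020-34772048, plus strand): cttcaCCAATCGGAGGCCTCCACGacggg
Hsp90b1, far site (chr10:86705633-86705661, minus strand): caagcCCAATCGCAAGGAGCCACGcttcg
Hsp90b1, near site (chr10:86705528-86705556, minus strand): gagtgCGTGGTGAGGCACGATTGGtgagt
Calr (chr8:84847070-84847098, minus strand): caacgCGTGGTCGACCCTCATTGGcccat
Canx (chr11:50325795-50325823, minus strand): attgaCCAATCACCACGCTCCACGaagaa
Dnajc3 (chr14:118937822-118937850, plus strand): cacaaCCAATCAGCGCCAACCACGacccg
Pdia6 (chr12:17266486-17266514, plus strand): agagaCCAATGAAAGGCGGCCACGgcgtg
Creld2 (chr15:88819515-88819543, plus strand): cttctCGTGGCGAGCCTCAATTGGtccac
Syvn1 (chr19:6046527-6046555, plus strand): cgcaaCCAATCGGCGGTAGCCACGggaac
Pdia4, 1 substitution (chr6:47813597-47813625, minus strand): aaccgaGTGGCAGCCCGTGATTGGtggtc
Pdia3, 1 substitution (chr2:121413868-121413896, plus strand): cgcagCCAATCGGCGGCTGCCACactgcg
Herpud1, ERSE-II (chr8:94386372-94386392, plus strand): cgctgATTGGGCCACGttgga
The exact ERSE of Hspa5 lay 65 to 47 bases before the RefSeq start, that of Syvn1 44 to 26 bases before it, and the far site of Hsp90b1 212 to 194 bases before it. In the GENCODE annotation Hspa5 starts at chr2:34771970, so that by it the Hspa5 site lies after the gene start. A match is a description of letters and not evidence of binding in these samples. The element is named for the response that the members were chosen to represent, so its excess among them is not a finding of these data.

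Library totals were 32.4, 41.2 and 38.5 M (mega) counts with doxorubicin plus MitoQ, 26, 25.5 and 28.1 M with doxorubicin, and 25.6, 35 and 24.7 M in sham. All 31 members passed the filter on low counts, among 15296 genes tested. Levels are given in CPM, the counts of a gene relative to the library total after scaling by the trimmed mean of M-values. A difference counts as called where edgeR's quasi-likelihood test gave an adjusted p below 0.05 over all genes tested (Benjamini-Hochberg). Of the libraries, 2 stood apart for the members: doxorubicin replicate 3 was the lowest of all 9 libraries for 18 of the 31 members (22% of all genes), and sham replicate 1 was the lowest of the sham libraries for 21 (28.2% of all genes). Both stay in the values below, and counts without them are given at the end.

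In sham hippocampus the members differed widely in level. Of the members that the results turn on, Hspa5 lies at chr2:34771970-34777547, Sdf2l1 at chr16:17130138-17132383, Pdia4 at chr6:47796141-47813430 and Xbp1 at chr11:5520659-5525893 (GRCm38). Per kilobase of exon (GENCODE M21), Calr stood at 169.7 ± 9.37 CPM per kb (SD, n = 3), Hsp90b1 at 95.1 ± 10.7, Canx at 88.0 ± 5.33, Hspa5 at 69.5 ± 14.4 and Pdia3 at 64.1 ± 7.04. Os9, at 60.3 ± 1.003 CPM per kb, was the most abundant degradation component, with Sel1l at 28.1 ± 0.90. The sham libraries of Hsp90b1 and Canx overlapped, as did those of Hspa5 and Pdia3 and those of Pdia3 and Os9, whereas all those of Hspa5 lay below all those of Canx. At the other end were Edem1 at 2.98 ± 0.13, Derl2 at 2.70 ± 0.35, Ern1 at 1.15 ± 0.07 and Pdia5 at 0.87 ± 0.10 CPM per kb. Among the sensors Atf6 had the highest level, at 11.0 ± 0.92 CPM per kb, followed by Eif2ak3 at 4.98 ± 0.31. Because the strand setting of the counting is not given, reads of overlapping genes could be mixed for Hsp90b1 (15.67% of its exon bases shared with other genes), Txndc5 (11.91%), Manf (9.25%) and Eif2ak3 (8.05%).

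**Figure D1:**
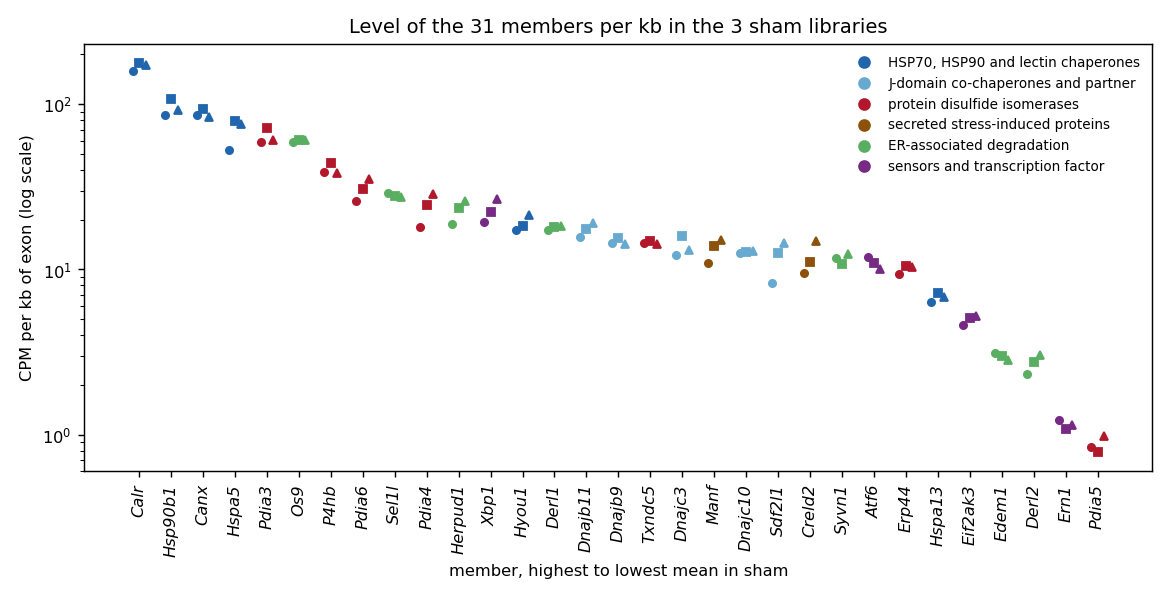
Levels of the 31 members in the 3 sham libraries, in CPM per kb of exon on a log scale, ordered by their mean; each point is a library and colours give the role. Lectin and HSP chaperones fill the top places, from Calr at 169.7 CPM per kb, and the sensor Ern1 and the isomerase Pdia5 are lowest.

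With doxorubicin, 23 of the 31 members had a lower fitted level than in sham, as did 48.9% of all genes, and the median log2 fold change was -0.12, against 0.00 over all genes tested. The largest differences were in Sdf2l1, Pdia4, Hspa5, Xbp1 and Pdia6, from -0.65 to -0.39 on the log2 scale, while the sensors and the degradation components lay between -0.12 and 0.12. No member was called (0% of all genes were), and the lowest adjusted p among the members was 0.485. At an unadjusted p under 0.05, 9 members were lower and 0 higher by edgeR, against 4.49% and 4.33% of all genes (8.83% in either direction). DESeq2 and limma-voom gave 10 and 9 lower, against 4.09% and 4.56% of all genes. The 3 doxorubicin libraries lay wholly below the 3 sham libraries for 3 members, namely Calr, Pdia3 and Xbp1, and wholly above them for 0 (6.79% and 6.2% of all genes). In bulk tissue, fewer cells of a type and less RNA per cell cannot be told apart.

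Doxorubicin plus MitoQ was compared with doxorubicin alone and with sham. Against doxorubicin, 23 members were higher in the MitoQ group (49.9% of all genes were, and 50.1% were lower) and the median log2 fold change was 0.08, against 0.00 over all genes. None was called by edgeR (0% of all genes), with a lowest adjusted p of 0.968. At an unadjusted p under 0.05 by edgeR, 7 members were higher and 0 lower (1.88% and 1.43% of all genes, 3.3% in either direction). DESeq2 and limma-voom gave 9 and 7 higher, against 1.56% and 2.05% of all genes. The libraries did not overlap for 14 members, all higher in the MitoQ group (4.73% of all genes were higher and 4.98% lower without overlap). Against sham, 13 members were higher and 18 lower (52.2% and 47.8% of all genes), with a median of -0.01 and 0 members at an unadjusted p under 0.05 by edgeR, DESeq2 or limma-voom; by edgeR 1.77% of all genes were lower and 1.18% higher at that p (2.95% in all). The libraries did not overlap for 2 members, Dnajc10 and Sel1l, both higher in the MitoQ group (4.11% of all genes were higher and 5% lower without overlap). The comparisons share libraries: the doxorubicin libraries are set against both other groups, and so are the sham libraries, so that opposite signs in doxorubicin against sham and in MitoQ against doxorubicin are not independent of each other. In the joint test of any difference among the groups, 7 members had an unadjusted p under 0.05 (5.11% of all genes) and none was called by edgeR.

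**Figure D2:**
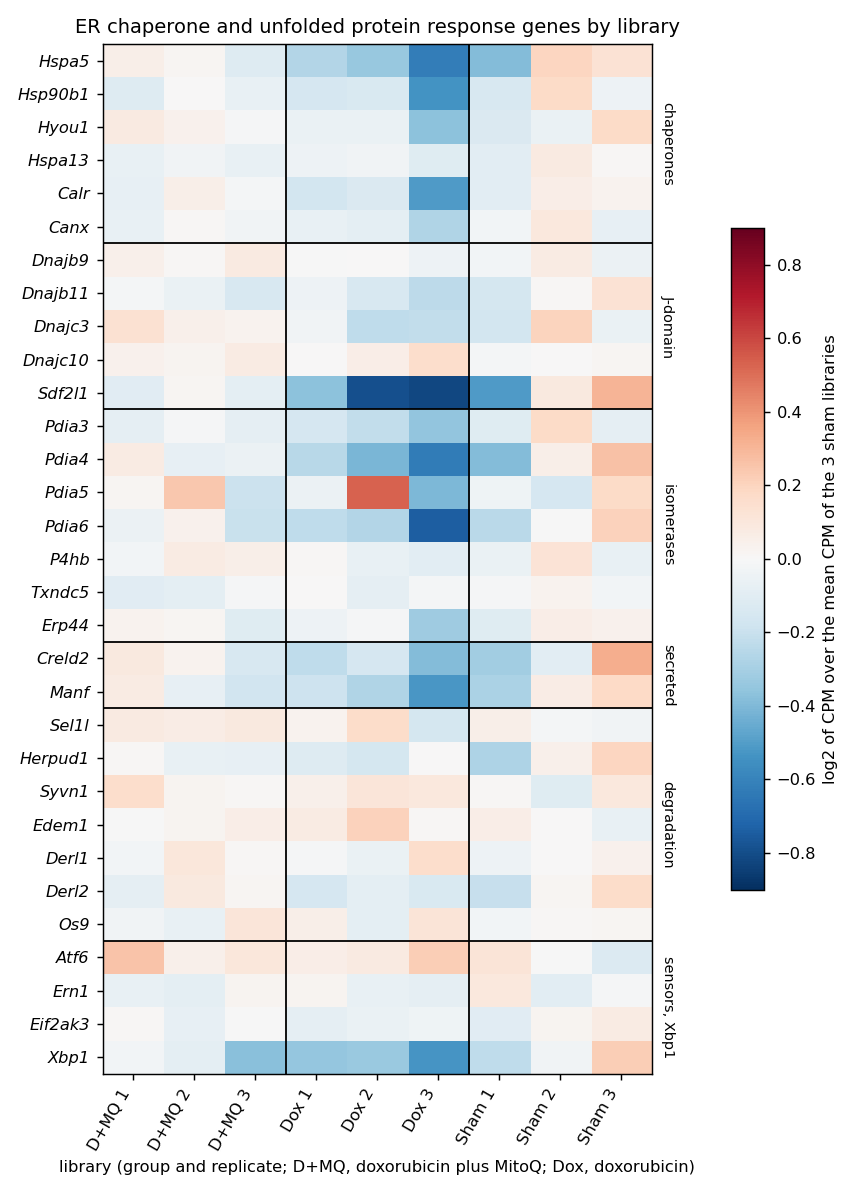
Each row is a member and each column a library; colour gives log2 of CPM over the mean CPM of the 3 sham libraries (blue lower, red higher), with black lines between groups and between roles. Doxorubicin replicate 3 is blue for Hspa5, Hsp90b1, Calr and Pdia6, and sham replicate 1 is blue for Hspa5, Sdf2l1 and Pdia4 and also for the degradation genes Herpud1 and Derl2.

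**Figure D3:**
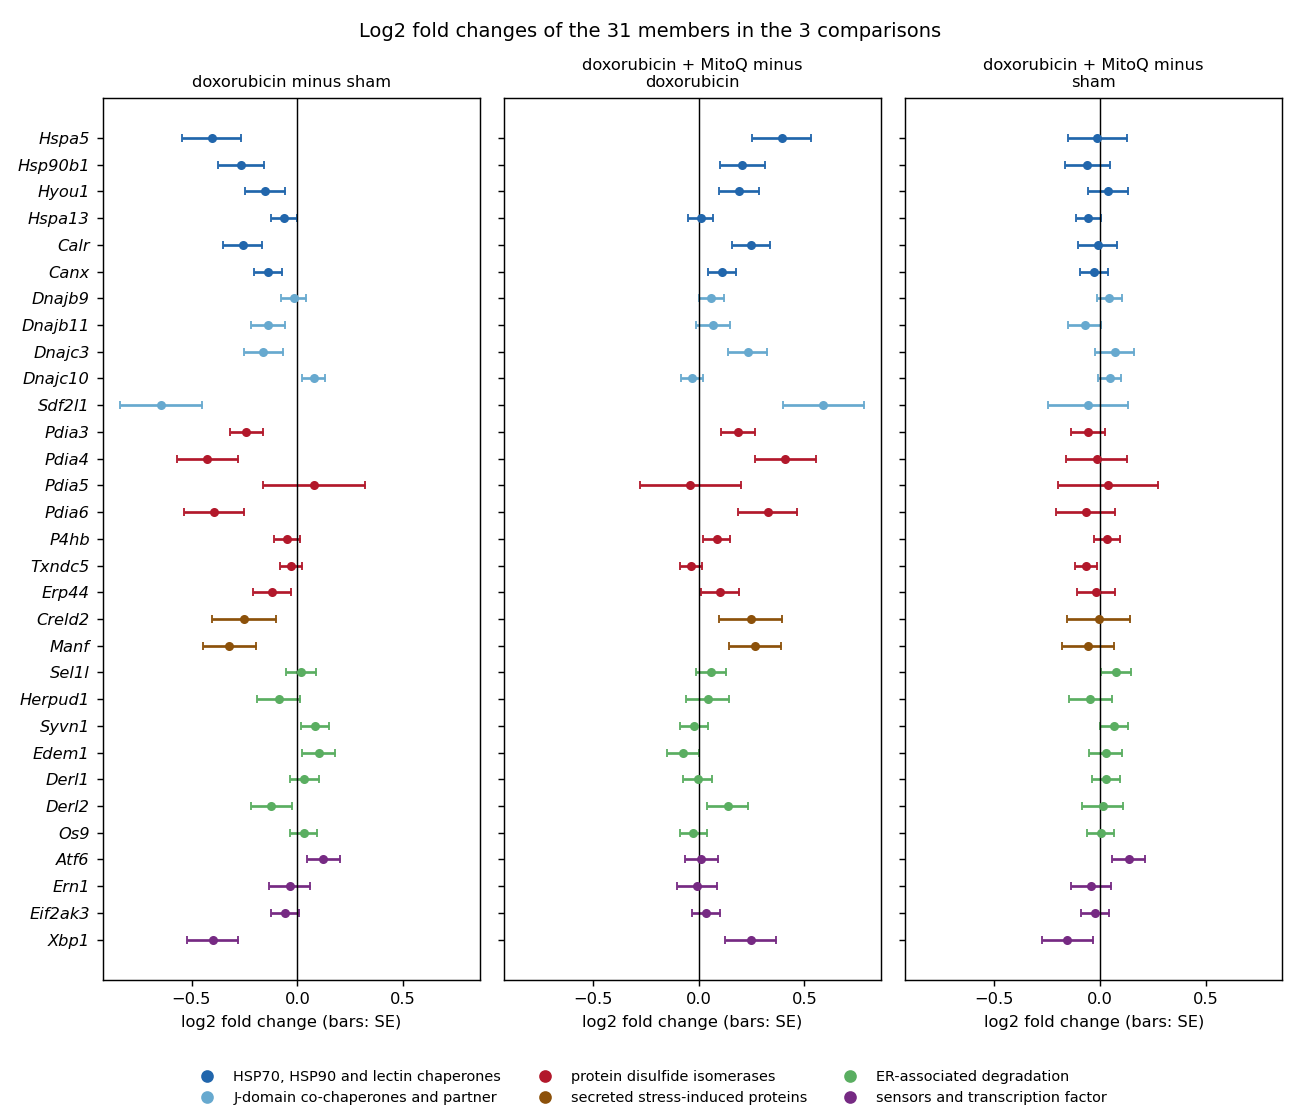
Log2 fold changes (points) with standard errors (bars) of the 31 members for doxorubicin minus sham, doxorubicin plus MitoQ minus doxorubicin, and doxorubicin plus MitoQ minus sham; colours give the role. Points of the chaperones lie left of 0 in the first panel and right of 0 in the second, and those of the degradation genes lie within 0.14 of 0 in each.

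All 6 chaperones had lower fitted levels with doxorubicin than in sham (median -0.21) and higher ones with MitoQ than with doxorubicin alone (median 0.20); none was called. Hspa5 encodes BiP, the ER member of the HSP70 family and the chaperone that holds the sensors inactive. It had 305, 297 and 272 CPM with doxorubicin plus MitoQ, 244, 232 and 190.3 CPM with doxorubicin, and 224, 336 and 322 CPM in sham. All MitoQ libraries were above all doxorubicin libraries, whereas sham replicate 1 lay below 2 of the doxorubicin libraries. The log2 fold change was -0.40 ± 0.14 (SE) for doxorubicin against sham (unadjusted p = 0.015, adjusted p = 0.487, edgeR), 0.39 ± 0.14 for MitoQ against doxorubicin (unadjusted p = 0.0172, adjusted p = 0.968) and -0.01 ± 0.14 for MitoQ against sham (adjusted p = 1).

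Hsp90b1, which encodes GRP94, the ER member of the HSP90 family, had 355, 384 and 366 CPM with doxorubicin plus MitoQ, 345, 348 and 265 CPM with doxorubicin, and 348, 431 and 371 CPM in sham. Its doxorubicin mean was lowered mainly by replicate 3, and the other doxorubicin libraries were level with sham replicate 1. The log2 fold change was -0.27 ± 0.11 for doxorubicin against sham (adjusted p = 0.519, edgeR), 0.21 ± 0.11 for MitoQ against doxorubicin (adjusted p = 0.968) and -0.06 ± 0.11 for MitoQ against sham; without doxorubicin replicate 3 the first was -0.15 and the second 0.09. Calr encodes the lectin chaperone calreticulin, which binds glycoproteins in the ER lumen and stores calcium. Its libraries stood at 464, 507 and 484 CPM with doxorubicin plus MitoQ, 435, 446 and 343 CPM with doxorubicin, and 458, 509 and 499 CPM in sham. Doxorubicin libraries were below all others, by a narrow margin except for replicate 3. The differences were -0.26 ± 0.09 for doxorubicin against sham (adjusted p = 0.487, edgeR) and 0.25 ± 0.09 for MitoQ against doxorubicin (adjusted p = 0.968), and without doxorubicin replicate 3 they were -0.15 and 0.14.

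The other chaperones differed less. Canx, the membrane-bound relative of calreticulin, averaged 405 ± 11.1 CPM with doxorubicin plus MitoQ, 375 ± 28.1 CPM with doxorubicin and 413 ± 25.03 CPM in sham (SD, n = 3 each). Hyou1, a large HSP70 relative that exchanges nucleotide on BiP, averaged 141 ± 4.62 CPM with doxorubicin plus MitoQ, 124 ± 14.8 CPM with doxorubicin and 138 ± 15.5 CPM in sham. Neither difference from sham had an unadjusted p under 0.05 by edgeR. By DESeq2, 4 of the 6 chaperones were lower with doxorubicin than in sham at that p (4.09% of all genes), against 3 by edgeR (4.49%). Hspa13, another HSP70 relative of the microsomes, was the steadiest chaperone, with 44.3, 45.3 and 44.3 CPM with doxorubicin plus MitoQ, 44.9, 45.3 and 42.9 CPM with doxorubicin, and 43.3, 49.0 and 46.7 CPM in sham. The groups overlapped throughout, and MitoQ against sham gave -0.05 ± 0.06 (adjusted p = 1, edgeR).

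**Figure D4:**
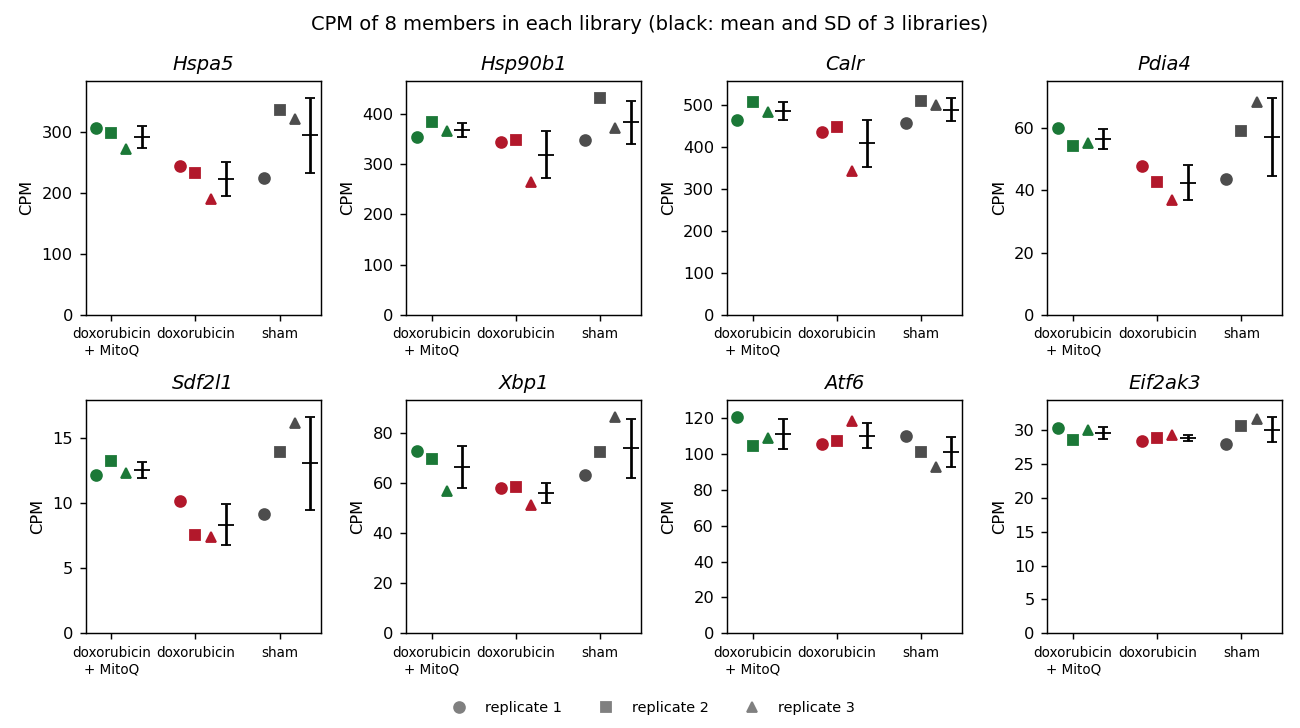
CPM of 8 members in each of the 9 libraries (points, with replicate 1 as circle, 2 as square and 3 as triangle), with the mean and SD of each group in black; each axis starts at 0. For Hspa5, Pdia4 and Sdf2l1 the MitoQ libraries lie above all doxorubicin libraries while sham replicate 1 lies with the doxorubicin libraries, and the sensors Atf6 and Eif2ak3 are similar in the 3 groups.

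Of the J-domain proteins and their partner, 4 of 5 were lower with doxorubicin than in sham and 4 of 5 higher with MitoQ than with doxorubicin alone. Sdf2l1, a small luminal protein that works in a complex with the J-domain protein of Dnajb11, showed the largest difference of any member. It had 12.1, 13.2 and 12.3 CPM with doxorubicin plus MitoQ, 10.1, 7.53 and 7.39 CPM with doxorubicin, and 9.15, 13.9 and 16.1 CPM in sham. Sham replicate 1 lay within the doxorubicin range, while the MitoQ libraries did not overlap the doxorubicin libraries. The log2 fold change was -0.65 ± 0.19 for doxorubicin against sham (unadjusted p = 0.00701, adjusted p = 0.485, edgeR), 0.59 ± 0.19 for MitoQ against doxorubicin (unadjusted p = 0.0113, adjusted p = 0.968) and -0.06 ± 0.19 for MitoQ against sham. Dnajc3, a J-domain co-chaperone of BiP also known as an inhibitor of PERK, had 77.8, 73.1 and 72.2 CPM with doxorubicin plus MitoQ, 69.0, 60.4 and 60.6 CPM with doxorubicin, and 63.0, 81.4 and 67.7 CPM in sham. It differed more between MitoQ and doxorubicin (0.23 ± 0.09, adjusted p = 0.968, edgeR), where libraries did not overlap, than between doxorubicin and sham (-0.16 ± 0.09, adjusted p = 0.622), where they did and where the value was -0.05 without sham replicate 2.

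Dnajb11 and Dnajb9, J-domain partners of BiP, and Dnajc10, which also reduces disulfide bonds before degradation, showed small differences. Dnajb11 averaged 53.9 ± 2.41 CPM with doxorubicin plus MitoQ, 51.5 ± 3.38 CPM with doxorubicin and 56.7 ± 5.52 CPM in sham. Dnajb9 averaged 38.8 ± 0.958 CPM with doxorubicin plus MitoQ, 37.2 ± 0.638 CPM with doxorubicin and 37.6 ± 1.79 CPM in sham. Dnajc10 was the exception in direction, with 66.2 ± 1.30 CPM with doxorubicin plus MitoQ, 67.6 ± 3.68 CPM with doxorubicin and 64.1 ± 0.786 CPM in sham, and a log2 fold change of 0.08 ± 0.05 for doxorubicin against sham (adjusted p = 0.682, edgeR).

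Disulfide isomerases form and rearrange disulfide bonds in folding proteins, and 6 of 7 were lower with doxorubicin than in sham (median -0.12). Pdia4 had 60.02, 54.2 and 55.0 CPM with doxorubicin plus MitoQ, 47.8, 42.7 and 36.8 CPM with doxorubicin, and 43.5, 59.0 and 68.3 CPM in sham. As for Hspa5, the MitoQ libraries stood clear of the doxorubicin libraries and sham replicate 1 lay inside the doxorubicin range. The log2 fold change was -0.42 ± 0.15 for doxorubicin against sham (unadjusted p = 0.0145, adjusted p = 0.487, edgeR), 0.41 ± 0.14 for MitoQ against doxorubicin (unadjusted p = 0.0169, adjusted p = 0.968) and -0.01 ± 0.14 for MitoQ against sham; without sham replicate 3 the first was -0.28. Pdia6, also known as a regulator of IRE1 signalling, had 110.5, 118 and 99.7 CPM with doxorubicin plus MitoQ, 97.5, 95.4 and 68.5 CPM with doxorubicin, and 96.8, 114 and 132 CPM in sham. Its difference of -0.39 ± 0.14 between doxorubicin and sham (adjusted p = 0.488, edgeR) was -0.25 without doxorubicin replicate 3.

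Pdia3 encodes the isomerase that works with calnexin and calreticulin on glycoproteins. It stood at 190.2, 200.1 and 190.5 CPM with doxorubicin plus MitoQ, 181, 173 and 157 CPM with doxorubicin, and 187, 227 and 190.2 CPM in sham. All doxorubicin libraries lay below all libraries of the other groups. The log2 fold change was -0.24 ± 0.08 for doxorubicin against sham (unadjusted p = 0.0116, adjusted p = 0.485, edgeR), 0.19 ± 0.08 for MitoQ against doxorubicin (adjusted p = 0.968) and -0.06 ± 0.08 for MitoQ against sham; without sham replicate 2 the first was -0.15. The remaining isomerases differed little. P4hb, the classical protein disulfide isomerase, averaged 118 ± 4.07 CPM with doxorubicin plus MitoQ, 111 ± 4.38 CPM with doxorubicin and 115 ± 8.68 CPM in sham. Erp44, which retains client proteins in the early secretory pathway, averaged 34.1 ± 1.79 CPM with doxorubicin plus MitoQ, 31.8 ± 3.65 CPM with doxorubicin and 34.5 ± 2.19 CPM in sham. Txndc5 had 60.9, 61.3 and 65.0 CPM with doxorubicin plus MitoQ, 65.5, 61.9 and 64.5 CPM with doxorubicin, and 65.0, 66.8 and 64.2 CPM in sham. Its groups overlapped, with -0.07 ± 0.05 for MitoQ against sham (adjusted p = 1, edgeR). Pdia5, the member with the fewest counts, stood at 2.47 ± 0.374 CPM with doxorubicin plus MitoQ, 2.55 ± 0.854 CPM with doxorubicin and 2.42 ± 0.277 CPM in sham.

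Creld2 and Manf encode small proteins that ER stress induces and that cells can secrete; MANF is known as a neurotrophic factor. Manf had 49.2, 44.3 and 41.5 CPM with doxorubicin plus MitoQ, 41.01, 38.8 and 32.5 CPM with doxorubicin, and 38.4, 48.9 and 52.9 CPM in sham. Creld2 had 17.0, 16.4 and 14.6 CPM with doxorubicin plus MitoQ, 13.7, 14.5 and 12.3 CPM with doxorubicin, and 12.9, 15.1 and 20.2 CPM in sham. For both genes the MitoQ libraries lay above the doxorubicin libraries and the sham libraries overlapped both groups. Doxorubicin against sham gave -0.32 ± 0.12 for Manf (adjusted p = 0.514, edgeR) and -0.25 ± 0.15 for Creld2 (adjusted p = 0.639), and MitoQ against doxorubicin gave 0.27 ± 0.12 and 0.25 ± 0.15 (adjusted p = 0.968 for both). Without sham replicate 3, Creld2 differed by -0.06 between doxorubicin and sham, and without doxorubicin replicate 3, Manf differed by 0.17 between MitoQ and doxorubicin.

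Of the 7 degradation components, 5 were higher and 2 lower with doxorubicin than in sham, with a median log2 fold change of 0.03 and a lowest adjusted p of 0.711 by edgeR, and 0 had an unadjusted p under 0.05. Without doxorubicin replicate 3 the same group had 3 higher and 4 lower and a median of -0.02, and without sham replicate 1 it had 2 lower at an unadjusted p under 0.05 (4.3% of all genes). The members lower without sham replicate 1 were Herpud1 at -0.21 and Derl2 at -0.22, against -0.09 and -0.12 with all libraries. No test of the difference between the degradation components and the chaperones was made. Sel1l and Syvn1 form the core of a ubiquitin ligase complex in the ER membrane. Sel1l had 254, 251 and 256 CPM with doxorubicin plus MitoQ, 245, 269.7 and 215 CPM with doxorubicin, and 249, 237 and 235 CPM in sham. The doxorubicin libraries enclosed all the others, and MitoQ against sham gave 0.08 ± 0.07 (adjusted p = 1, edgeR) without overlap of the libraries. Syvn1, the ligase itself, had 63.2, 57.4 and 56.8 CPM with doxorubicin plus MitoQ, 58.4, 61.04 and 60.4 CPM with doxorubicin, and 56.8, 52.5 and 60.3 CPM in sham. It was the only member with an exact ERSE that was not lower with doxorubicin, at 0.09 ± 0.07 (adjusted p = 0.716, edgeR).

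Herpud1, a membrane adaptor of that complex and a known target of the stress response through ERSE-II, averaged 51.4 ± 1.67 CPM with doxorubicin plus MitoQ, 49.9 ± 2.93 CPM with doxorubicin and 53.1 ± 8.49 CPM in sham. Edem1, which recognises trimmed glycans on misfolded proteins, averaged 19.6 ± 0.469 CPM with doxorubicin plus MitoQ, 20.6 ± 1.45 CPM with doxorubicin and 19.2 ± 0.833 CPM in sham. These differences were smaller than or close to the spread between replicates. The derlins Derl1 and Derl2 take part in moving proteins back across the membrane. Derl1 averaged 60.8 ± 2.74 CPM with doxorubicin plus MitoQ, 61.05 ± 4.97 CPM with doxorubicin and 59.7 ± 1.76 CPM in sham, and Derl2 averaged 21.9 ± 1.28, 19.96 ± 0.439 and 21.7 ± 2.79 CPM in the same groups. Os9, a lectin that hands glycoproteins to the ligase, averaged 159 ± 10.4 CPM with doxorubicin plus MitoQ, 162 ± 11.4 CPM with doxorubicin and 158 ± 2.64 CPM in sham.

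Between doxorubicin and sham, differences were smaller in the sensors than in Xbp1. Xbp1, whose transcript IRE1 splices and whose level ATF6 raises, had 72.5, 69.6 and 56.9 CPM with doxorubicin plus MitoQ, 58.1, 58.5 and 51.1 CPM with doxorubicin, and 62.9, 72.2 and 86.2 CPM in sham. All doxorubicin libraries were below all sham libraries, and MitoQ replicate 3 lay inside the doxorubicin range. The log2 fold change was -0.40 ± 0.12 for doxorubicin against sham (unadjusted p = 0.00716, adjusted p = 0.485, edgeR), 0.25 ± 0.12 for MitoQ against doxorubicin (unadjusted p = 0.0656, adjusted p = 0.968) and -0.15 ± 0.12 for MitoQ against sham (adjusted p = 1). Leaving out each library in turn gave -0.50 to -0.28 for doxorubicin against sham.

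Atf6 had 121, 105 and 109 CPM with doxorubicin plus MitoQ, 105, 107 and 118 CPM with doxorubicin, and 109.8, 101 and 92.8 CPM in sham. The groups overlapped, and the differences were 0.12 ± 0.08 for doxorubicin against sham (adjusted p = 0.651, edgeR), 0.01 ± 0.08 for MitoQ against doxorubicin and 0.14 ± 0.08 for MitoQ against sham (unadjusted p = 0.106, adjusted p = 1). Ern1 had 8.95, 8.81 and 9.52 CPM with doxorubicin plus MitoQ, 9.55, 8.96 and 8.89 CPM with doxorubicin, and 10.01, 8.80 and 9.32 CPM in sham. Eif2ak3 had 30.2, 28.6 and 29.9 CPM with doxorubicin plus MitoQ, 28.4, 28.8 and 29.2 CPM with doxorubicin, and 28.0, 30.5 and 31.6 CPM in sham. For both genes every group overlapped every other. Ern1 differed by -0.04 ± 0.10 and Eif2ak3 by -0.06 ± 0.07 between doxorubicin and sham, by -0.01 ± 0.10 and 0.04 ± 0.07 between MitoQ and doxorubicin, and by -0.04 ± 0.10 and -0.02 ± 0.07 between MitoQ and sham, none called by edgeR.

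The promoter sequences shown above can be set beside these values. The 8 members with an exact ERSE had a median log2 fold change of -0.26 for doxorubicin against sham, with 7 of 8 lower, and of 0.24 for MitoQ against doxorubicin, with 7 of 8 higher. The 14 members with an ERSE of at most 1 substitution, the 8 included, had medians of -0.20 and 0.20, with 12 lower in the first comparison and 13 higher in the second. The 12 members whose window held no ERSE even with 1 substitution had medians of -0.03 and 0.01, with 8 of 12 lower in the first comparison and 6 of 12 higher in the second. These 12 include Sdf2l1 and Xbp1, with the largest and the fourth largest lower values among the members, so the ERSE alone does not sort the members cleanly. The 12 are not free of related elements. Dnajb11 holds an exact ERSE-II, and Sdf2l1 and Edem1 hold an ERSE-II with 1 substitution. Outside the members, 11 tested genes with an exact ERSE had medians of -0.03 and 0.02. With at most 1 substitution, 251 tested genes outside the members had medians of 0.011 and 0.004. Of these, 48.2% were lower in the first comparison and 51.0% higher in the second. All tested genes with a window had medians of 0.01 and 0.00. Of the 11, 6 were lower and 5 higher in the first comparison, and 6 higher and 5 lower in the second. Derl3, Alg12 and Calr4 among them stood at -0.17, -0.19 and -0.29, and at 0.33, 0.05 and 0.32, the direction of most members. Pan2, with the smallest p of the 11 in the first comparison (edgeR), went the other way, at 0.27 and -0.18. Acacb was higher in both, at 0.20 and 0.08. The libraries of these named genes overlapped in both comparisons. Derl3 and Calr4 were low, at 0.78 to 1.32 and 0.81 to 0.98 CPM in sham. No test of these groups of genes was made.

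Other genes of the pathway, from lists drawn up with earlier results of these data known, had a median closer to 0 than the members. Of 137 tested, 85 were lower and 52 higher with doxorubicin than in sham (median -0.02), and none was called by edgeR. At an unadjusted p under 0.05, 12 were lower and 2 higher (4.49% and 4.33% of all genes). MitoQ against doxorubicin gave 79 higher and 58 lower (median 0.02), and MitoQ against sham 58 higher and 79 lower (median -0.01). Among 15 tested genes of N-glycosylation and glycan trimming, 13 were lower with doxorubicin than in sham (median -0.05) and 14 higher with MitoQ than with doxorubicin (median 0.08). Uggt2, a relative of the glucosyltransferase that marks misfolded glycoproteins, had the opposite order, at 26.7 ± 1.12 CPM with doxorubicin plus MitoQ, 29.7 ± 1.05 CPM with doxorubicin and 23.8 ± 3.02 CPM in sham (adjusted p = 0.943 for any difference, edgeR). Ostc, a subunit of the enzyme that attaches the glycans, averaged 26.0 ± 1.32, 23.8 ± 1.15 and 27.3 ± 0.202 CPM in the same order (adjusted p = 0.943).

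Of 20 tested genes of the PERK arm and targets of ATF4, 13 were lower with doxorubicin than in sham (median -0.05), 13 lower with MitoQ than with doxorubicin (median -0.02) and 19 lower with MitoQ than in sham (median -0.05, where 47.8% of all genes were lower). In the last comparison 2 were lower at an unadjusted p under 0.05 (1.77% of all genes) and none was called by edgeR. Nupr1, a stress-induced chromatin protein, averaged 3.08 ± 0.559 CPM with doxorubicin plus MitoQ, 3.09 ± 0.364 CPM with doxorubicin and 4.40 ± 0.342 CPM in sham (adjusted p = 0.943 for any difference). Stc2, a secreted glycoprotein induced through PERK, stood at 2.10 ± 0.379, 3.37 ± 0.579 and 3.07 ± 0.704 CPM in the same order (adjusted p = 0.943). Atf4, the factor itself, averaged 119 ± 7.39, 116 ± 9.12 and 127 ± 7.84 CPM, and Ddit3, which encodes the stress factor CHOP, 15.2 ± 0.938, 16.6 ± 1.40 and 16.9 ± 1.49 CPM. These last 2 genes were named after their values were seen.

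Of the remaining lists, other folding factors had 17 of 26 lower with doxorubicin than in sham (median -0.03), translocation and signal peptide removal 16 of 22 (median -0.03), other sensors and transcription factors 6 of 10 (median -0.01), transport between ER and Golgi 12 of 23 (median -0.01), and other degradation genes 8 of 21 (median 0.03). Fkbp2, a prolyl isomerase of the ER, averaged 51.6 ± 0.516 CPM with doxorubicin plus MitoQ, 47.5 ± 4.38 CPM with doxorubicin and 56.7 ± 1.84 CPM in sham, with the smallest any-difference p of its list (adjusted p = 0.943, edgeR). Txndc12, a small thioredoxin-like protein, averaged 22.5 ± 0.665, 22.1 ± 0.401 and 25.3 ± 1.84 CPM in that order. Spcs2 and Spcs3, subunits of signal peptidase, averaged 63.6 ± 1.95 and 61.7 ± 2.84 CPM with doxorubicin plus MitoQ, 58.5 ± 1.88 and 58.0 ± 1.12 CPM with doxorubicin, and 65.8 ± 3.28 and 63.6 ± 2.33 CPM in sham. Wfs1, an ER membrane protein that restrains ATF6 signalling, averaged 168 ± 16.2 CPM with doxorubicin plus MitoQ, 167 ± 5.998 CPM with doxorubicin and 194 ± 24.6 CPM in sham, and Creb3l1, a membrane-bound factor related to ATF6, 6.55 ± 1.29, 5.15 ± 0.699 and 5.82 ± 0.894 CPM. The coat proteins Sec24d and Sec31a and the degradation genes Nploc4 and Selk, the last listed under its older symbol, had any-difference adjusted p-values from 0.943 to 0.948.

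Chaperones of other compartments were set beside them. Of 20 cytosolic heat shock genes, 19 were lower with doxorubicin than in sham (median -0.18) and 16 higher with MitoQ than with doxorubicin (median 0.10), none called by edgeR. At an unadjusted p under 0.05, 2 were lower in the first comparison and 1 higher in the second, against 4.49% and 1.88% of all genes. Of 12 mitochondrial chaperones and proteases, 7 were lower with doxorubicin than in sham (median -0.01) and 5 higher with MitoQ than with doxorubicin. No test of the difference between these lists and the members was made.

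**Figure D5:**
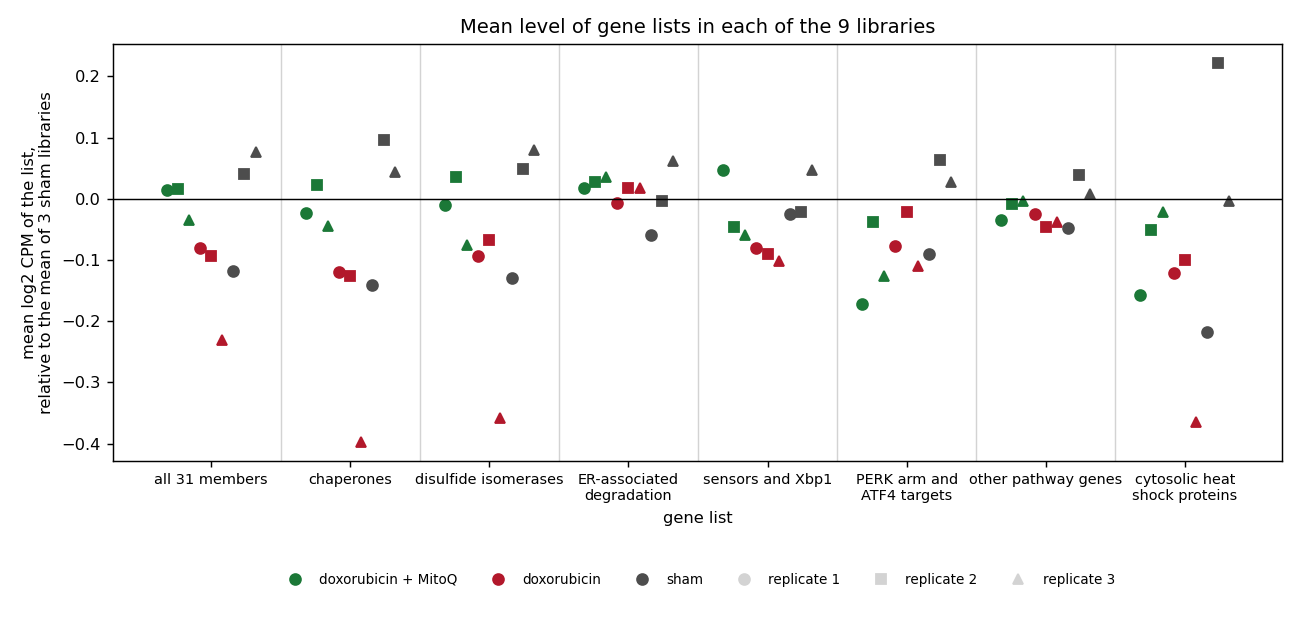
Mean log2 CPM of 8 gene lists in each library, relative to the mean of the 3 sham libraries (green, doxorubicin plus MitoQ; red, doxorubicin; grey, sham; shapes give the replicate). For the 31 members the levels are 0.01, 0.02 and -0.03 with MitoQ, -0.08, -0.09 and -0.23 with doxorubicin, and -0.12, 0.04 and 0.08 in sham, and the lists of degradation and other pathway genes stay closer to 0. Cytosolic heat shock proteins spread further, at -0.16, -0.05 and -0.02 with MitoQ, -0.12, -0.10 and -0.36 with doxorubicin, and -0.22, 0.22 and -0.004 in sham.

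Averaged over the 31 members, the level relative to the sham mean was 0.01, 0.02 and -0.03 on the log2 scale with doxorubicin plus MitoQ, -0.08, -0.09 and -0.23 with doxorubicin, and -0.12, 0.04 and 0.08 in sham. Sham replicate 1 thus lay between the doxorubicin libraries. Without doxorubicin replicate 3, 25 members were lower with doxorubicin than in sham but 4 in place of 9 had an unadjusted p under 0.05 (3.42% of all genes), and 2 in place of 7 were higher at that p with MitoQ than with doxorubicin (1.34% of all genes). The last count was also 2 without MitoQ replicate 1 (1.61% of all genes), with none of the isomerases among them, 3 without MitoQ replicate 2 (0.889%) and 11 without sham replicate 3 (2.1%). Without sham replicate 1, 14 members were lower at that p with doxorubicin than in sham (4.3% of all genes). Without both libraries, an alternative chosen after seeing the data, 24 members were lower with doxorubicin than in sham, 10 of them at that p (3.46% of all genes). The median over the members ranged from -0.17 (without sham replicate 1) to -0.07 (without sham replicate 3) when each library was left out in turn.

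Markers of other cells and of RNA fractions also differed between the groups. Fibroblast and meningeal markers were lower with doxorubicin than in sham in 10 of 10 genes (median -0.96), though none was called by edgeR. Of them, 8 were lower at an unadjusted p under 0.05 (4.49% of all genes) and 8 without overlap of the libraries (6.79% of all genes). Their summed levels were 207 to 287 CPM with doxorubicin plus MitoQ, 98.2 to 269 CPM with doxorubicin and 165 to 365 CPM in sham. Microglial markers were lower in 7 of 7 (summed levels 365 to 397 CPM with doxorubicin plus MitoQ, 347 to 362 CPM with doxorubicin and 368 to 391 CPM in sham) and astrocyte markers in 5 of 6. With MitoQ, fibroblast markers were higher than with doxorubicin alone in 10 of 10 (median 0.51), microglial markers in 7 of 7 (median 0.13) and choroid plexus markers in 8 of 8 (median 0.56). Between doxorubicin and sham, hippocampal neuron markers were higher with doxorubicin in 8 of 8 and nuclear-retained RNAs in 7 of 8. The former had 881 to 972 CPM with doxorubicin plus MitoQ, 898 to 1010 CPM with doxorubicin and 763 to 890 CPM in sham. The latter had 3750 to 4374, 4232 to 4881 and 2966 to 4795 CPM in the same order. In the same comparison general neuron markers were higher with doxorubicin in 4 of 7, oligodendrocyte markers in 3 of 6 and endothelial markers in 1 of 5. Between MitoQ and doxorubicin, hippocampal neuron markers were higher with MitoQ in 3 of 8 and nuclear-retained RNAs in 3 of 8. Plasma cells carry a large ER. Of their 6 markers 3 were tested, and the summed level of all 6 was 2.59 to 3.61 CPM over all libraries. Choroid plexus markers varied within every group, with summed levels of 1356 to 5289 CPM with doxorubicin plus MitoQ, 73.6 to 4134 CPM with doxorubicin and 84.8 to 5053 CPM in sham. With their level as a covariate, an alternative chosen after seeing the data, 23 members were lower with doxorubicin than in sham, 10 of them at an unadjusted p under 0.05 (5.08% of all genes). The part of fibroblast, glial, neuronal and nuclear RNA in the members' values was not tested.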

How the data were processed

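PolyA RNA of mouse hippocampus was sequenced from TruSeq libraries after Trizol and column extraction, per the labels' protocols. The authors deposited raw counts for each gene symbol. STAR, DESeq2 and mm10 are named in the submitters' processing notes, without versions. The sources used here do not give the counting program, its strand setting or its annotation. Of 24421 entries, 27 with a date in place of a symbol (0.309% to 0.322% of counts) were left out; 0 columns belonged to no sample. Depth was 24.7 to 41.2 M counts.

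All 9 libraries entered 1 quasi-likelihood fit in edgeR 4.0.16 (R 4.3.3) with TMM scaling after filterByExpr (minimum count 10), and p-values were adjusted by Benjamini-Hochberg over 15296 genes. CPM use TMM-scaled library sizes, and list levels are means of log2 CPM with a prior count of 1. The SE of a log2 fold change is its size divided by the square root of F; the common biological coefficient of variation was 11.4%. With 3 libraries a group, the smallest p of an exact permutation test on 1 gene is 0.1. The procedure was tested on simulated data. The smallest planted change was larger than the difference of any member except Sdf2l1, so recovery of smaller differences was not tested. Coordinates and exon lengths are from GENCODE M21 (GRCm38), promoter windows from RefSeq (GRCm38.p6), matched by symbol; 5 members had no entry.

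Members and lists were chosen with earlier results of these data known. Full values are given for Hspa5, Hsp90b1, Xbp1, Atf6, Ern1, Eif2ak3 and the 6 members with the smallest p per comparison, and from each other pathway list for the 2 genes with the smallest any-difference p; 6 of 139 pathway genes were matched by an older symbol. Further members are described outside that rule. Alternatives were RLE scaling, DESeq2 1.42.0, limma-voom (limma 3.58.1), other filters, fits of only the groups compared, the replicate number as a block, and leaving out each library.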

Additional observations from a re-analysis of the deposited data

How the results depend on the processing

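No member was called under any alternative run, and no named log2 fold change with a size over 0.15 turned its sign. Over all genes, the number called was 0 in each comparison with edgeR, against 44 (doxorubicin against sham), 5 (MitoQ against doxorubicin), 2 (MitoQ against sham) and 36 (any difference) with DESeq2. Without the filter on low counts it was 1, 2 and 3 for the first, second and any-difference tests. Leaving out each library in turn gave 0 to 1, 0 to 3, 0 to 3 and 0 to 4, in that order, the higher values all without MitoQ replicate 2.

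The same replicate numbers recur in the groups, but deviations of same-numbered libraries correlated from -0.50 to -0.05 for doxorubicin and sham, from -0.05 to 0.36 for MitoQ and doxorubicin and from -0.28 to 0.08 for MitoQ and sham, and 0, 2 and 1 of 6 libraries correlated best with their own number, so the numbers were not taken as pairs. With the replicate block, 2 genes were called for doxorubicin against sham in place of 0, and 10 members in place of 9 were lower at an unadjusted p under 0.05. The share of all genes at that p in the block fit is not given here.

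Members lower with doxorubicin than in sham at an unadjusted p under 0.05 numbered 4 (without doxorubicin replicate 3) to 14 (without sham replicate 1). Members higher with MitoQ than with doxorubicin at that p numbered 2 (without doxorubicin replicate 3, and also without MitoQ replicate 1) to 11 (without sham replicate 3). They numbered 11 when only the groups compared were fitted, and 4 without both doxorubicin replicate 3 and sham replicate 1. With both left out, 3 members were lower with MitoQ than in sham at that p, against 0. For these counts, 11, 4 and 3, the share of all genes in the same fit is not given here, so they cannot be set against it. The cause of these changes was not tested. Differences near 0 changed sign: leaving out a library moved MitoQ against doxorubicin between -0.048 and 0.066 for Atf6 and between -0.041 and 0.027 for Ern1, MitoQ against sham between -0.17 and 0.090 for Hspa5, between -0.12 and 0.030 for Hsp90b1, between -0.094 and 0.0061 for Ern1 and between -0.072 and 0.0095 for Eif2ak3, and doxorubicin against sham between -0.088 and 0.012 for Ern1. Hspa5 in MitoQ against sham was 0.0075 with limma-voom. Ern1 was 0.0015 in MitoQ against doxorubicin with the choroid plexus covariate, and without both libraries it was 0.032 in doxorubicin against sham and 0.0064 in MitoQ against sham.

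The depth and the 3 libraries of each group gave the sensors SEs of 0.07 to 0.10 on the log2 scale, and no calculation of the smallest detectable difference was made.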
